A study of Mus musculus with 2 samples.

Results

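Skeletal myofibre-like cells of the mouse knee joint were taken as the cells in which Acta1, Ckm, Mylpf and Tnnt3 together made up 1% or more of the unique molecular identifiers (UMIs, 1 for each captured RNA molecule) and in which Ptprc, the pan-leukocyte surface gene, had no UMI. Cells also had to have at least 500 detected genes, at least 1000 UMIs and at most 10% of UMIs from mitochondrial genes. This gave 279 of 15174 kept cells, or 1.84% (95% exact Clopper-Pearson interval 1.63 to 2.07), out of 24203 deposited barcodes. A further 15 kept cells passed the 1% threshold but had a Ptprc UMI. The 279 cells, called members below, held 2499677 UMIs.

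The series profiled knee joints of Col12a1 KO mice and of WT mice at postnatal day 7, with both sexes included, by 10x 3' single-cell RNA-seq after collagenase digestion of joints freed of skin and paws. The labels describe 3 libraries of Col12a1 KO joints and 3 of WT joints from 2 experiments; the KO allele and the number of animals in each library were not given in the sources used here. All cells were deposited in 1 merged matrix whose barcodes end in 1 or 2, and no label ties either ending to a genotype, a library or an experiment. KO and WT cells therefore could not be told apart, the matrix was treated as 1 sample with no replicates, and no KO against WT comparison was made; values are given for barcode set 1 and barcode set 2 side by side. Intervals throughout are 95% intervals that cover counting error only.

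A skeletal myofibre is a long multinucleate cell formed by the fusion of myoblasts, which arise from Pax7-expressing satellite cells and pass through a stage marked by the transcription factor myogenin (Myog). Its cytoplasm is filled with sarcomeres, in which myosin thick filaments pull on actin thin filaments when calcium released from the sarcoplasmic reticulum binds troponin. In rodents the limb fibres switch around birth from embryonic and neonatal myosin heavy chains to adult fast or slow forms.

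The 4 genes of the rule are given first, as a description. Acta1 encodes skeletal alpha-actin, Mylpf the fast regulatory myosin light chain, Tnnt3 fast troponin T and Ckm muscle creatine kinase. In CPM (UMIs of a gene per 1000000 UMIs) summed over members, Acta1 stood at 55502 in set 1 and 54051 in set 2, Mylpf at 55610 and 46611, Tnnt3 at 21023 and 18198, and Ckm at 15228 and 12891. Each of the 4 stood higher in set 1, by the most for Mylpf and the least for Acta1. On GENCODE gene models for mm10, Acta1 lies at chr8:123891769-123894751 on the minus strand, Ckm at chr7:19404776-19422841, Mylpf at chr7:127208890-127214298 and Tnnt3 at chr7:142498836-142516009, the last 3 on the plus strand; the RefSeq starts used for the promoters below differ from these gene ends.

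The promoters of 3 of these genes and of Myh4, the myosin heavy chain with most UMIs in members, are shown because their RNA is what marks the members. Each runs from 250 bases before to 50 bases after the RefSeq start (GRCm38.p6), 5′ to 3′ on the gene's own strand: Acta1 chr8:123894726-123895025 (minus), Ckm chr7:19410844-19411143 (plus), Mylpf chr7:127211358-127211657 (plus) and Myh4 chr11:67237562-67237861 (plus). Capitals mark matches, on either strand, to CAGCTG (1 form of the E-box CANNTG bound by myogenic factors), CATTCC (the core of the MCAT element), the MEF2 motif and the CArG box; the marked matches do not overlap each other. Tnnt3 had no sequence in the table used.
Acta1: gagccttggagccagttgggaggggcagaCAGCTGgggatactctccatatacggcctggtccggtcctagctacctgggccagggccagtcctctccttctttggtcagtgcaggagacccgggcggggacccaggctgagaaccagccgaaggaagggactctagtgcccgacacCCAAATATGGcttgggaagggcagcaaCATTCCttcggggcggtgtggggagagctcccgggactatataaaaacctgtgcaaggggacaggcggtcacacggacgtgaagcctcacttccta
Ckm: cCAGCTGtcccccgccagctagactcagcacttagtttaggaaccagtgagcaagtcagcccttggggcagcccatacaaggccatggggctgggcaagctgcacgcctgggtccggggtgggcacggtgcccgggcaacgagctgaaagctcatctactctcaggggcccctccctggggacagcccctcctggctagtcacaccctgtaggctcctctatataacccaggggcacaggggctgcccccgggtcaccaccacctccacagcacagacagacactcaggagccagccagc
Mylpf: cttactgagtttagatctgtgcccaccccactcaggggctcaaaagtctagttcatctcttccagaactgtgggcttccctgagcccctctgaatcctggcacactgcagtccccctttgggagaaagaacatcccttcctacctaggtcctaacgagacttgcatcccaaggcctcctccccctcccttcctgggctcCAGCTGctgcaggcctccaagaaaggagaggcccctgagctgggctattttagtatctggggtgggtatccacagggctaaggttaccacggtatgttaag
Myh4: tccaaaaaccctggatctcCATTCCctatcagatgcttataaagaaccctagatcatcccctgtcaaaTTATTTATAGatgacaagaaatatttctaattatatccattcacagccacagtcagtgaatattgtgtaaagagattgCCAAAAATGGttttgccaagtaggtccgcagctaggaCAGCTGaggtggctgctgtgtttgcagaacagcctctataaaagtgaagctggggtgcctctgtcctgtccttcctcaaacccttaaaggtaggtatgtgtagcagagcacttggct
All 4 promoters hold CAGCTG. The Acta1 window also holds a CArG box and CATTCC, and the Myh4 window holds all 4 motifs. Among the 51 of 66 sarcomere genes with a promoter in the table, 37.3% hold CAGCTG, 33.3% CATTCC, 17.6% the MEF2 motif and 13.7% the CArG box. Over all 27018 promoters the shares are 16.1%, 14.6%, 3.26% and 1.57%. These are matches of letters and show no binding.

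The score used by the rule, the share of a cell's UMIs from its 4 genes, was not spread evenly. Members had a median score of 12.5%, with a lowest of 1.02% and a highest of 24.6%. There were 192 members at 10% or more (74 in set 1 and 118 in set 2), 36 between 5% and 10% (13 and 23) and 51 between 1% and 5% (14 and 37), called the upper, middle and lower ranges below. They are ranges of a score and not cell types. The 5 cells just inside scored 1.02% to 1.11% and had 0 to 36 Myog UMIs; the 5 just outside scored 0.935% to 0.9996% and had 0 to 23.

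**Figure D1:**
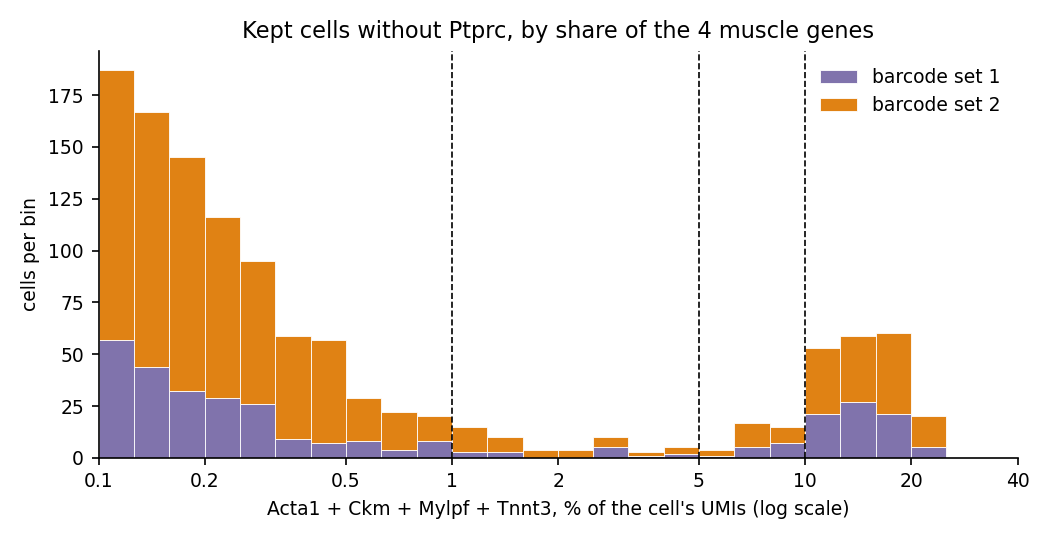
Number of kept cells without a Ptprc UMI (y) in each bin of the share of UMIs from the 4 genes of the rule (x, percent, log scale), stacked by barcode set; cells under 0.1% are not drawn. Dashed lines stand at 1%, 5% and 10%; most members lie above 10%, and few cells lie between 1% and 5%.

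Members made up 1.41% of kept cells in set 1 (101 of 7160) and 2.22% in set 2 (178 of 8014). None of the 40 barcode sequences found in both sets was shared between members. Over the whole matrix the authors' counts sum to 257619292 UMIs over 32285 genes, with a median of 7369 UMIs a barcode in set 1 and 7212 in set 2. Members were shallower: their median was 3558 UMIs and 924 genes, with a range of 1060 to 134352 UMIs. Sums over members lean on the deepest cells, since the 10 largest held 28.5% of all member UMIs.

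Markers of other cells were checked next. Of 5 cardiomyocyte markers, Myh6, Myl7 and Ryr2 were at 0 in members; of the Schwann cell markers, Sox10 and Cdh19 were at 0. Pax7 had a UMI in 2 members and Myog in 49. Erythroid genes had a median of 0.372% of UMIs in members, reached 1% in 70 of them and were led by Hbb-bs, adult beta-globin, at 13320 CPM. That sum leans on the lower range, with 55699 CPM there and 1808 CPM in the upper range. The highest erythroid share of a cell was 87.9% in members and 45.1% in the upper range, so some members were largely haemoglobin RNA. The highest neutrophil share of a member was 29.3%. In the upper range no cell had more than 0.368% of UMIs from fibroblast and tendon markers, 0.154% from chondrocyte markers or 0.299% from neutrophil markers; the 40 upper-range cells with 1% or more from any of 10 marker lists had it from erythroid genes. The lower range was more mixed: 34 of its 51 cells (66.7%) had 1% or more from such a list, against 40 of 192 (20.8%) in the upper range. Of those 34, 18 had erythroid and 13 fibroblast and tendon genes at that level, led by Col3a1 at 6654 CPM. Other classes were led in members by Col2a1 (662 CPM; 95.3% of it in 1 cell), S100a9 (486 CPM), Acta2 (290 CPM), Ebf1 (60.0 CPM), Sdc4 (36.8 CPM), Lyz2 (29.6 CPM), Tnni3 (7.60 CPM), Pecam1 (5.20 CPM), Bglap (2.40 CPM), Mbp (4 UMIs) and Tpsb2 (3 UMIs). The muscle markers of the upper range are set by the rule, and a high score leaves less room for other markers, so the label was not tested there; many lower-range cells carried RNA of other classes as well. The part of that RNA in the results below was not tested except where a value without those cells is given.

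In most members no Malat1 UMI was detected, and mitochondrial RNA was low. Malat1, a long non-coding RNA kept in the nucleus, had no UMI in 161 members (57.7%, 51.7 to 63.6), against 3 of 527 Myog cells (0.569%) and 104 of 14895 other kept cells (0.698%). Myog cells are kept cells with a Myog UMI, no Ptprc UMI and under 1% of UMIs from the 4 genes; they had a median of 11770 UMIs. With every cell thinned to 1000 UMIs, Malat1 was seen in 25.1% of members (42.3% unthinned) and in 95.3% of Myog cells (99.4% unthinned), so the gap was present at equal depth too. B-lineage cells, described below, stood at 97.2% (100% unthinned). The gap moved with the score: after thinning, Malat1 was seen in 12.0% of upper-range and 78.4% of lower-range cells. Its level was 440 CPM in the upper and 14263 CPM in the lower range. Neat1, another nuclear RNA, stood at 7.67 and 1597 CPM, but 1 lower-range cell held 64.4% of all member Neat1 UMIs.

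Mitochondrial transcripts moved the same way, with a median of 0.783% of UMIs in the upper range, 1.73% in the middle range and 2.34% in the lower range, against 3.51% in Myog cells. Nuclear genes of the respiratory chain went in the opposite direction. Over 85 such genes the median share of UMIs was 10.0% in the upper range, 7.43% in the middle range and 2.43% in the lower range, against 2.93% in Myog cells and 1.17% in other kept cells. Upper-range cells thus had a higher share of nuclear-encoded respiratory chain RNA than Myog cells. Their share of the mitochondrially encoded RNA was lower, within a filter that set a limit of 10% for both. That filter left out 348 barcodes without Ptprc that were at 1% or more of the 4 genes. Low mitochondrial RNA in members was therefore partly set by the rule. Ribosomal protein genes had a median of 10.7% of UMIs in members and 26.2% in Myog cells.

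**Figure D2:**
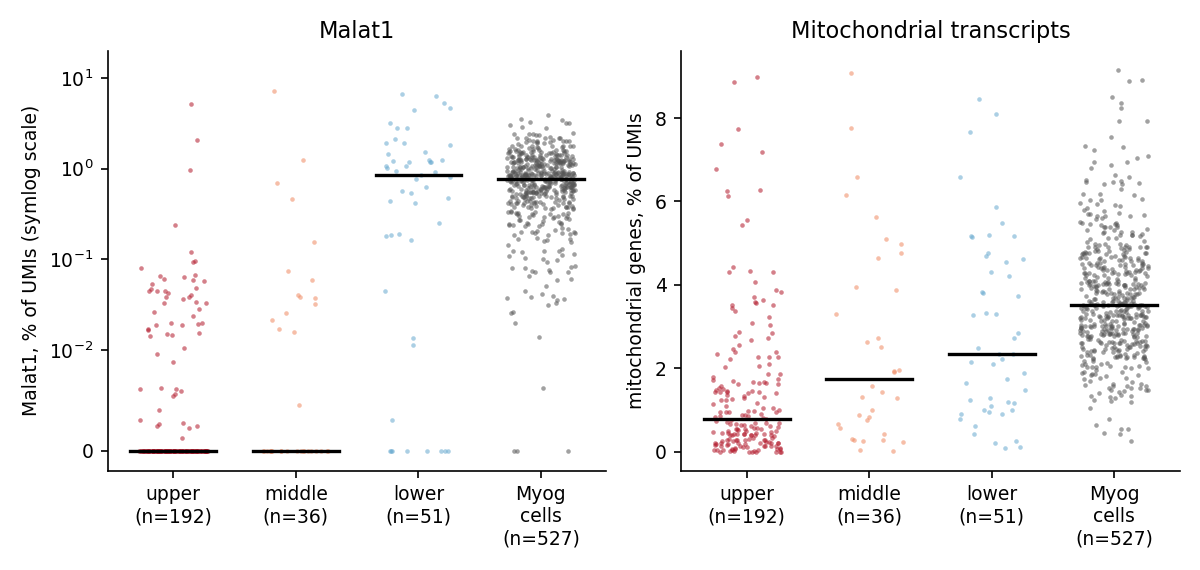
Each point is a cell: the share of its UMIs from Malat1 (left, symmetric log scale) and from mitochondrial genes (right), for the upper, middle and lower score ranges of members and for Myog cells; bars are medians. The upper and middle medians for Malat1 are 0, and mitochondrial medians run from 0.783% in the upper range to 3.51% in Myog cells.

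Members were then set against the 527 Myog cells, which carry RNA of the factor that marks differentiating myoblasts, in each gene that had at least 100 UMIs over the members and Myog cells combined. A gene was called where the ratio of CPM was 2 or more, or 0.5 or less, its exact conditional binomial interval left out 1 and both barcode sets had the same direction; with 1 sample this is a rule of size and not a test. Of 8365 genes, 672 (8.03%) were called higher in members and 4843 (57.9%) lower, with a median log2 ratio of -1.23. CPM divides a fixed total among all genes, and genes of the muscle structure lists took a median of 31.3% of UMIs in members and 1.41% in Myog cells. Scaled to UMIs outside those lists the median was -0.70, and with median-of-ratios scaling, in which 1775 genes were called higher and 1396 lower, it was close to 0. Ratios below are by CPM and are to be read relative to -1.23. In the upper range alone, 682 of 8107 genes (8.41%) were higher than in Myog cells and 5623 (69.4%) lower. The rule used the 4 genes in this contrast, so muscle structure genes, which follow them, are described and nothing is read from their counts.

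Thin filament genes were among the most abundant RNAs of members. Beside Acta1 at 54596 CPM in members and 688 CPM in Myog cells, Tnnc2 (fast troponin C) stood at 31549 and 48.9 CPM, Tpm1 (alpha-tropomyosin) at 20515 and 518 CPM, Tnni2 (fast troponin I) at 18021 and 46.1 CPM, and Tpm2 (beta-tropomyosin) at 11479 and 406 CPM. Of 12 thin filament genes tested, 9 were called higher and 0 lower, with a median log2 ratio of 5.07. The 3 not called include the forms used early in muscle: Actc1, cardiac alpha-actin, which embryonic skeletal muscle also makes, had 1565 CPM in members and 1122 CPM in Myog cells (1.39-fold, 1.34 to 1.45), and Tnnt2, cardiac troponin T, had 118 and 161 CPM (0.736-fold, 0.647 to 0.836). Tpm3, slow tropomyosin, had 221 and 113 CPM. The slow troponin genes Tnnc1, Tnnt1 and Tnni1 were 62.3-fold, 4.63-fold and 3.70-fold higher, and are taken up again with the slow-fibre cells. Tnni3, cardiac troponin I, had 19 UMIs in members. Among 7 myosin light chain genes, 6 were called higher and 1, the kinase gene Mylk4, lower. Myl1, the fast essential light chain, had 32065 CPM in members and 73.9 CPM in Myog cells. Over both sets the latter was near the 69.6 CPM of B-lineage cells. In set 1 Myl1 had 85.0 CPM in Myog cells and 29.0 CPM in B-lineage cells, and in set 2 67.7 and 101 CPM. Myl3 (566-fold, 259 to 1545) and Myl2 (81.5-fold) are slow-fibre and cardiac chains, and Myl4, the embryonic one, was 9.19-fold higher. Of the 4 heavy chain genes with enough UMIs, Myh4 (805 CPM in members and 23.3 CPM in Myog cells), Myh1 (113 and 3.76 CPM) and Myh8 (166 and 17.4 CPM) were higher, and Myh3 (19.2 and 12.8 CPM) was not called. Myh3 rests on few cells near the threshold: at a score threshold of 2% it was called lower, at 0.466-fold, and without the 3 members with most of its UMIs it was 0.574-fold. Myl4 was not particular to members: it had 202 CPM in members, 22.0 CPM in Myog cells and 170 CPM in B-lineage cells. The source of its UMIs in members was not tested.

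For some of these genes the Myog cell level, summed over both barcode sets, was no higher than in cells of another lineage. In 632 cells with UMIs of both Cd79a and Ptprc, B-lineage cells that should lack sarcomere RNA (median 5407 UMIs), Mylpf stood at 121 CPM, Tnnc2 at 77.8, Tnnt3 at 60.0 and Tnni2 at 55.1, all above the levels in Myog cells. The same held for 18 of the 88 muscle structure genes called higher. Acta1 differed: it stood at 130 CPM in the B-lineage cells and 688 CPM in Myog cells, and it made up 80.1% of the UMIs of the 4 genes in Myog cells, against 39.7% in members and 36.5% in B-lineage cells. Ckm was near level, with 44.9 CPM in B-lineage cells and 46.2 CPM in Myog cells. Folds of Ckm (298), Tnnt3 (525) and Mylpf (565), taken over both sets together, are therefore ratios to a level near or below that of B-lineage cells. So are those given below for Tcap, Tmod4, Ppp1r27, Tceal7, Hspb7, Casq1, Pvalb, Pgam2, Eno3, Cox6a2 and Itgb1bp2, and that of Myh4 above, all of which stood no higher in Myog cells than in B-lineage cells over both sets. Ckm, Tnnt3, Mylpf, Tnnc2, Tnni2, Myl1, Pvalb and Myh4 split by set, standing above the B-lineage level in set 1 and below it in set 2. In set 1 Mylpf had 97.6 CPM in Myog cells and 41.0 CPM in B-lineage cells, and Ckm 37.6 and 13.1 CPM. In set 2 they had 83.4 and 182 CPM, and 51.0 and 69.5 CPM. The other genes are not given by set here. Whether these Myog cell levels are RNA from other cells was not tested.

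Z-disc, M-band and giant sarcomere protein genes followed, with 27 of 32 called higher and 0 lower and a median log2 ratio of 3.74. Tcap, or telethonin, which caps titin at the Z-disc, had 1238 CPM in set 1 members and 1236 in set 2 members, against 0.351 and 2.33 CPM in Myog cells (760-fold, 444 to 1429). Myoz2, a calcineurin-binding Z-disc protein, was 617-fold higher (283 to 1686), Myoz1 365-fold, Smpx 342-fold, Myot, or myotilin, 259-fold and Actn3, the alpha-actinin of fast fibres, 197-fold. Some of these folds are to a level near that of B-lineage cells too. Myoz1 had 4.88 CPM in Myog cells and 4.32 CPM in B-lineage cells, Actn3 7.64 and 7.10 CPM, and Smpx 3.51 and 2.62 CPM. Des, the intermediate filament desmin, had 1655 CPM in members and 245 CPM in Myog cells, and Tmod1, another thin filament cap, 173 and 54.3 CPM. The genes of the giant proteins differed far less: titin (Ttn) had 1115 CPM in members and 358 CPM in Myog cells (3.12-fold) and nebulin (Neb) 681 and 181 CPM (3.76-fold). Flnc, Cryab, Lmod2, Obsl1 and Myo18b were not called. Among 9 chaperones of sarcomere assembly 6 were higher and 3 lower (median log2 ratio 1.54): Hspb7 was 156-fold, Smyd1 13.2-fold, Hspb8 4.49-fold and Klhl41 4.07-fold higher, while the stress chaperones Hsp90aa1 (0.171-fold) and Hspb1 (0.470-fold) were lower. Over all genes, the top of the list was Ppp1r27 with 806 UMIs in members and 2 in Myog cells (1288-fold, 355 to 10653), and Tmod4, which caps thin filament ends, with 787 and 3 UMIs (838-fold, 286 to 4074), followed by Tcap, Pgam2, Tnnc2, Tceal7, Myoz2, Myl3, Mylpf and Tnnt3. Of these 10 genes, Myoz2 and Myl3 were the ones whose Myog cell level over both sets was above the B-lineage level. For Myoz2 the 2 levels were close, at 0.751 and 0.617 CPM. At the other end were Ctnna2, Gpihbp1, Hist1h2ae, Gal, Gdf15, St8sia2, Cxcr4, Cenpe, Flt1 and Edn3, each with 1 or 2 UMIs in members and 199 to 919 in Myog cells. A count of 0 was set to 3 UMIs before ranking, so genes with 0 UMIs in members rank as less low than their counts. Myog cells also carried endothelial markers, with Cdh5 at 69.2 CPM, Pecam1 at 50.8 CPM and Kdr at 24.2 CPM, all 3 called lower in members, though no Myog cell had more than 0.338% of UMIs from that list; 85 Myog cells (16.1%) had 1% or more from a list of another class. The part of that RNA in these ratios was not tested. Against all 14895 other kept cells, with 1292 of 16900 genes (7.64%) called higher and 8408 (49.8%) lower, the top 5 were Tceal7 (995-fold), 3300002P13Rik (768-fold), Ppp1r27 (702-fold), Myl1 (680-fold) and Mylpf (657-fold), the last a gene of the rule.

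Genes that couple excitation to contraction were split by role. Of 19 tested, 12 were called higher and 1 lower, with a median log2 ratio of 1.90. Pvalb, parvalbumin, the cytosolic calcium buffer of fast fibres, had 4492 CPM in set 1 members and 4753 in set 2 members, against 3.51 and 21.8 CPM in Myog cells. Cacna1s, the voltage sensor of the T-tubule, was 122-fold higher (51.4 to 380), Casq1, the calcium store protein of the reticulum, 101-fold and triadin (Trdn) had 875 CPM in members and 15.9 CPM in Myog cells. Jph2, which ties the T-tubule to the reticulum, was 2.60-fold higher. Ryr1, the calcium release channel, had 90.0 CPM in members and 55.7 CPM in Myog cells and was not called, nor were Stac3, Jsrp1, Srl, Bin1 and Cacna2d1. The calcium pumps diverged: Atp2a1, the fast-fibre pump, had 1138 CPM in members and 144 CPM in Myog cells (7.91-fold, 7.38 to 8.47), while Atp2a2 had 44.8 and 181 CPM (0.247-fold, 0.202 to 0.300). Of the micropeptides that act on these pumps, sarcolipin (Sln) had 1157 and 22.3 CPM (51.9-fold) and myoregulin (Mrln) 248 and 42.8 CPM (5.79-fold). Strit1, which encodes the pump activator DWORF, had 28 UMIs in members and 0 in Myog cells, at least 29.8-fold higher against a floor of 3 UMIs over the Myog cells, and phospholamban (Pln) had 1 UMI in members and 9 in Myog cells.

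Energy metabolism genes were called higher in 23 of 25 cases and lower in 0, with a median log2 ratio of 4.38. The muscle forms of glycolytic enzymes led, with Pgam2 at 2856 CPM in members and 4.26 CPM in Myog cells (671-fold) and Eno3 at 4323 and 12.1 CPM (356-fold). Aldoa stood at 6229 and 659 CPM (9.45-fold) and Gapdh at 7446 and 1846 CPM (4.03-fold). Muscle isoforms of cytochrome oxidase subunits were also high, with Cox6a2 294-fold, Cox7a1 138-fold and Cox8b 64.2-fold higher. Cox7a1 was near level between Myog cells and B-lineage cells, at 6.38 and 6.33 CPM. The ADP/ATP carrier Slc25a4 had 5173 CPM in members and 492 CPM in Myog cells. The smallest folds called were those of Pgk1 (2.18) and Art3 (2.996), and Phka1 and Gys1 were not called.

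Myog itself, which defined the comparison cells, had 96.8 CPM in members and 1277 CPM in Myog cells. The 3 members with most Myog UMIs, scoring 1.02% to 1.45%, held 57.9% of them, and without these 3 the level in members was 41.4 CPM. Of the 20 myogenic transcription factor genes tested, 3 were called higher and 12 lower, with a median log2 ratio of -1.47, near the 57.9% lower and the median of -1.23 over all genes; with median-of-ratios scaling 6 were higher and 5 lower, and Eya4, called lower at 0.484-fold, came to 1.13-fold. Myf6, the myogenic factor known to persist in mature fibres, ran against its family: it had 99.2 CPM in set 1 members and 73.0 in set 2 members, against 0.702 and 0.584 CPM in Myog cells (132-fold, 55.8 to 412). It had a UMI in 81 members (29.0%; 8.60% after thinning to 1000 UMIs), against 5 Myog cells (0.949%) and 1 B-lineage cell (0.158%). After thinning no Myog cell had a Myf6 UMI. Mafa, known to act on fast myosin genes, had 107 CPM in members and 7.51 CPM in Myog cells (14.3-fold), and Mef2c 543 and 109 CPM (4.96-fold), but B-lineage cells had 345 CPM of Mef2c. Myod1 was 0.201-fold, Mef2a 0.320-fold and Six4 0.0872-fold. Pax7 (0.0301-fold), Prox1 (0.0519-fold), Myf5 (0.250-fold), Hes6 (0.259-fold), Tead4 (0.339-fold) and Eya1 (0.383-fold) were also called lower. Nfix, Sox6, Maf, Mef2d and Tbx15 were not called, though Nfix, at 0.882-fold, came to 2.06-fold with median-of-ratios scaling, and Pax3 and Mef2b had too few UMIs.

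Fusion genes were called lower in 7 of 9 cases, against 57.9% of all genes, and higher in 0, with a median log2 ratio of -2.34. Mymk, or myomaker, which drives membrane fusion of myoblasts, had 19.6 CPM in members and 173 CPM in Myog cells (0.113-fold, 0.0832 to 0.150), and its partner Mymx, or myomixer, was 0.260-fold. The adhesion genes Cdh15 (0.0952-fold), Jam3 (0.101-fold) and Jam2 (0.256-fold) were lower too, as were Dock1 (0.198-fold) and Cd9 (0.169-fold), while Tmem182 and Cd81 were not called; with median-of-ratios scaling 5 of 9 were lower and 1 higher. Cdh2, Stab2, Adgrb1, Adgrb3 and Dock5 had too few UMIs. Of 10 neuromuscular junction genes 8 were lower and 0 higher, among them Chrna1, the acetylcholine receptor alpha subunit (28.8 CPM in members and 226 CPM in Myog cells), and Musk, the receptor kinase that clusters it (0.0508-fold). Etv5, Chrnb1, Dok7 and Lrp4 were lower and Rapsn, which anchors the receptors, was not called; with median-of-ratios scaling 7 of 10 were lower. All 24 cell cycle genes tested were lower (median log2 ratio -2.59), and 20 were lower under that scaling. They span both sides of the cycle: the inhibitors Cdkn1c (1423 CPM in members and 7237 CPM in Myog cells), Cdkn1a (119 and 342 CPM) and Cdkn2c (0.360-fold), and the proliferation genes Mki67 (0.194-fold), Ccnb1 (2 UMIs in members) and Mcm3 (1 UMI in members). Rb1 was 0.192-fold and Ccne2 0.386-fold.

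Genes of the fibre surface were called in both directions. Of 17 dystrophin complex and repair genes 5 were higher and 5 lower, against 8.03% higher and 57.9% lower over all genes. Their median log2 ratio was 0.23, above the -1.23 of all genes. Caveolin-3 (Cav3) was 4.93-fold higher, Dysf, or dysferlin, of membrane repair, 3.45-fold and Sgcd 2.81-fold higher; dystroglycan (Dag1, 0.104-fold), utrophin (Utrn, 0.251-fold) and myoferlin (Myof, 11 UMIs in members) were lower. Dystrophin itself (Dmd) had 332 CPM in members and 198 CPM in Myog cells and was not called; without the 3 members with most Dmd UMIs it had 137 CPM in members. Of 12 myotendinous junction genes, which anchor fibre ends to tendon, 1 was higher and 7 lower, near the 57.9% lower over all genes. With median-of-ratios scaling 1 was higher and 0 lower. The gene called higher was Itgb1bp2, or melusin, at 375 CPM in members, 3.51 CPM in Myog cells and 4.32 CPM in B-lineage cells; Itga7, the fibre's laminin receptor, and its ligand chain Lama2 were 0.257-fold and 0.258-fold, Tln2 and Pxn 0.446-fold and 0.423-fold, Ankrd1 and Col6a1 were not called, and Col22a1 could not be read, since 1 lower-range cell held 98.4% of its 123 UMIs in members. Among growth signals, the imprinted RNA H19 had 8885 CPM in set 1 members and 6240 in set 2 members, against 401 and 391 CPM in Myog cells (18.3-fold, 17.65 to 19.04), and its neighbour Igf2 had 1492 and 553 CPM (2.70-fold). Igf1 (0.273-fold) and Fndc5 (0.292-fold) were lower, and Meg3 and Dlk1 were not called. Over 11 growth genes the median log2 ratio was -0.19, and 1.04 with median-of-ratios scaling. H19 was seen in 93.2% of members after thinning to 1000 UMIs (97.8% unthinned), 14.04% of Myog cells (51.2% unthinned) and 7.75% of B-lineage cells (29.1% unthinned). Of 9 atrophy genes, Trim63, or MuRF1, was 15.3-fold and Trim54 32.1-fold higher, Trim55, Foxo1 and Fbxo30 were lower, though none of the 9 was lower with median-of-ratios scaling, and Fbxo32, or atrogin-1, was not called at 17.2 CPM in members and 31.5 CPM in Myog cells. Of 16 immediate early and heat shock genes 8 were lower, a smaller share than the 57.9% over all genes, and 0 higher. Among the 8 were Hspa1b (0.126-fold), Hspa1a (0.177-fold) and Fosl1 (0.0981-fold). With median-of-ratios scaling 3 were lower. Of 12 collagen genes 5 were lower, also a smaller share than over all genes. Col11a1 (0.248-fold) and Col19a1 (0.290-fold) were the lowest, and Col3a1 and Col1a1 were not called. No collagen gene was called with median-of-ratios scaling.

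Col12a1, the gene knocked out in the KO mice, had 26.4 CPM in members (3.20 in set 1 and 40.3 in set 2) and 37.4 CPM in Myog cells, and was not called. The 3 members with most Col12a1 UMIs held 54.5% of the 66; without them the level in members was 12.3 CPM, with 17.9 CPM in set 2 and no change in set 1, and Col12a1 was called lower, at 0.328-fold (0.217 to 0.478).

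Set against 594 Pax7 cells, which have a Pax7 UMI, no Myog or Ptprc UMI and under 1% of UMIs from the 4 genes, 745 of 9041 genes (8.24%) were called higher in members and 5595 (61.9%) lower, with a median log2 ratio of -1.41. Of 12 thin filament genes 11 were higher, now with Actc1 (138-fold, 113 to 170.2) and Tnnt2 (528-fold, 145 to 4382, with 2 UMIs in Pax7 cells) among them, both of which were not called against Myog cells. Fusion genes were lower in 6 of 6 cases and neuromuscular junction genes in 5 of 6. Transcription factors divided, with 6 higher and 7 lower of 19, and Myf6 25.5-fold higher. Members are in both comparisons, so these are not independent of each other.

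The myosin heavy chain genes, which set the speed of a fibre, were counted as shares of all Myh UMIs. The fast and developmental genes form a cluster on chromosome 11, in the order Myh3 (chr11:67078300-67102291), Myh2, Myh1, Myh4 (chr11:67238029-67260446), Myh8 and Myh13 (chr11:67321658-67371586). Close copies could share reads, and how such reads were counted was not given in the sources used here. Of 2870 Myh UMIs in members, Myh4, the fast IIB form, took 70.1% (68.4 to 71.8), Myh8, the neonatal form, 14.5%, Myh1, the fast IIX form, 9.83%, Myh2, the fast IIA form, 2.93%, Myh3, the embryonic form, 1.67%, and Myh7, the slow form, 0.976%. Myh6, Myh7b, Myh13 and Myh15 had 0 UMIs, which allows a share of up to 0.105% each. In Myog cells the same shares, over 486 UMIs, were 38.3% for Myh4, 28.6% for Myh8 and 21.0% for Myh3. Over both sets Myh4 stood at 23.3 CPM in Myog cells and 56.2 CPM in B-lineage cells. How much of its pooled share in Myog cells is RNA from other cells was not tested. By set, Myh4 had 8.78 CPM in Myog cells and 1.06 CPM in B-lineage cells in set 1, and 31.3 and 98.8 CPM in set 2. Myh8 and Myh3 stood at 1.85 and 0.154 CPM in B-lineage cells.

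The barcode sets differed in this make-up. Myh4 took 60.9% of Myh UMIs in set 1 members (57.8 to 63.9) and 75.2% in set 2 members (73.2 to 77.1), Myh8 22.2% and 10.3%. Myh1 stood at 143 CPM in set 1 members and 94.8 CPM in set 2 members. Within the upper range Myh4 took 71.2% in set 1 and 75.9% in set 2, with overlapping intervals, and Myh8 17.7% and 8.16%. Myh1 turned there, with 9.22% in set 1 and 11.5% in set 2, also with overlapping intervals. In the lower range Myh1 took 40.2% of 87 UMIs in set 1 and 2.78% of 324 in set 2. In the middle range Myh4 took 12.8% of 109 UMIs in set 1 and 81.5% of 362 in set 2. That set 1 share rests on 2 of 13 cells, which held 72 of the 109 UMIs and none of Myh4; without them it was 37.8% (22.5 to 55.2). Myh4 in cells that should lack it also differed: B-lineage cells had 1.06 CPM in set 1 and 98.8 CPM in set 2, against 662 and 891 CPM in members. With the B-lineage level taken off, the Myh4 share of all members was 68.6%. Whether the sets differ by genotype, experiment or library cannot be told apart.

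Cell by cell, the median member had 3 Myh UMIs and 56 had none. Among the 81 with 10 or more, Myh4 led in 59, Myh8 in 9, Myh1 in 7, Myh2 in 3, Myh3 in 2 and Myh7 in 1. The cell led by Myh2 most clearly had 35 Myh2 UMIs of 46, the 2 led by Myh3 had 11 of 11 and 12 of 16, and the cell led by Myh7 had 25 of 35. Both cells led by Myh3 had a score near 1.4%, with 48 and 56 Myog UMIs and 18 and 142 Malat1 UMIs. Cells led by Myh8 and by Myh1 were found from the lower to the upper range. The 2 lower-range cells led by Myh8, scoring 1.02% and 1.26%, had 36 and 8 Myog UMIs.

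**Figure D3:**
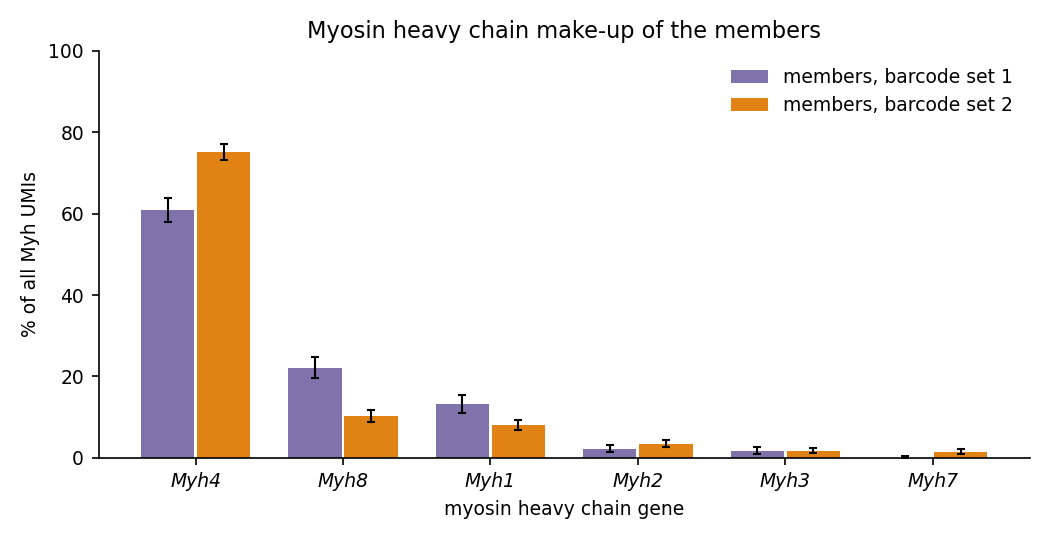
Share of all Myh UMIs of members (y, percent) taken by each myosin heavy chain gene (x) in barcode set 1 and barcode set 2; bars are shares over 1020 and 1850 UMIs and error bars are 95% Clopper-Pearson intervals. Myh4 leads in both sets, and over all members Myh8 and Myh1 take more in set 1. In the upper range alone Myh1 takes 9.22% in set 1 and 11.5% in set 2.

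A small group of members carried slow-fibre RNA. The slow genes Tnni1, Tnnc1, Tnnt1, Myl2, Myl3 and Myh7 were set against the fast genes Tnni2, Tnnc2, Tnnt3, Mylpf, Myl1 and Myh4, of which Mylpf and Tnnt3 belong to the rule. Slow genes took 1.22% of the UMIs of both groups over all members (0.471% in set 1 and 1.74% in set 2), and 161 members had no slow UMI. In 10 members slow UMIs outnumbered fast ones (2 in set 1 and 8 in set 2; 1 in the upper, 3 in the middle and 6 in the lower range). Those 10 cells held 91.4% of all Myl2 UMIs of members, 87.4% of Tnnc1, 84.2% of Myl3, 74.3% of Tnnt1 and 71.8% of Tnni1. The folds of these genes over Myog cells therefore rest in part on few cells. Without the 10, Tnni1 (1.08-fold) and Tnnt1 (1.24-fold) were no longer called, while Myl3 was still 92.8-fold (41.8 to 257), Tnnc1 8.14-fold and Myl2 7.31-fold higher than in Myog cells.

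Chosen by those genes, the 10 also differed in genes the choice did not use, though with so few cells this is a description. Tpm3 had 4491 CPM in the 10 cells and 60.6 CPM in the other 269 members, myoglobin (Mb), the oxygen store of oxidative fibres, 1681 and 126 CPM, and Strit1 288 and 0.830 CPM. Pvalb ran the other way, with 11.1 CPM (1 UMI) in the 10 cells and 4829 CPM in the other members, as did Tpm1 with 2245 and 21200 CPM and Actn3 with 144 and 1552 CPM. Atp2a2 had 387 and 32.0 CPM, but of its 35 UMIs in the 10 cells, 5, 5 and 11 lay in the 3 cells without Myl2 given below. Those 3 cells had 0, 1 and 1 Tpm3 UMIs. The sums over the 10 lean on 2 cells, scoring 12.2% and 6.67%. These 2 held 166 and 145 of the 406 Tpm3 UMIs and 62 and 61 of the 152 Mb UMIs. Acta1, shared by all fibres, was closer, at 41012 and 55105 CPM. The 10 were of 2 kinds. In 7 of them Myl2 had 18 to 517 UMIs, Myog at most 1 and Malat1 none in 5; in the other 3 Myl2 was at 0, Myog had 8 to 10 UMIs, Malat1 91 to 221, and the score was 1.04% to 1.26%.

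**Figure D4:**
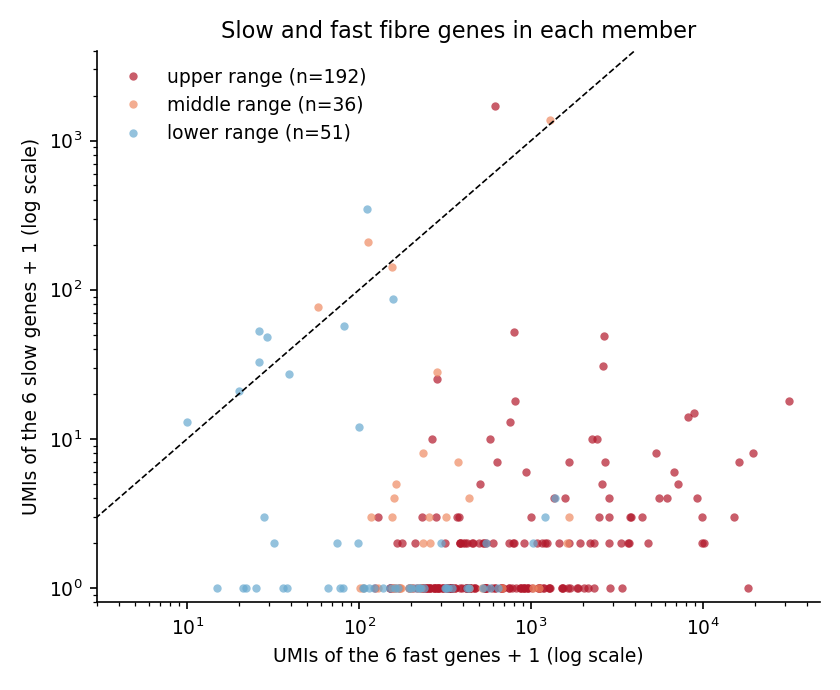
Each point is a member: UMIs of the 6 fast genes plus 1 (x) and of the 6 slow genes plus 1 (y), both on log scales, coloured by score range. Points above the dashed line of equality are the 10 members with more slow than fast UMIs; most members lie along the bottom with 0 slow UMIs.

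Within members the upper range was set against the lower, as a description, since the score made the groups. Of 2014 genes, 599 (29.7%) were called higher in the upper range and 576 (28.6%) lower. The highest ratios belonged to 3300002P13Rik, with 164 UMIs in the upper and 2 in the lower range, A930003A15Rik (19.8-fold), Etfrf1, with 126 and 2 UMIs, Mettl21c (12.2-fold), a muscle methyltransferase, Hspb6 (11.8-fold), a small heat shock protein, Coq10a (11.4-fold), 2310040G24Rik (10.6-fold), Tceal7 (9.84-fold), Eno3 (9.67-fold) and Mylpf (9.27-fold). The lowest, again with a count of 0 set to 3 UMIs before ranking, were Sdk1, Sox5, Akap12, Adamts5, Dpt, Agbl1, Clec3b, Gfpt2, Has1 and Maml2. Each had 1 to 3 UMIs in the upper range. Of member UMIs, 1 lower-range cell with a score of 3.88% held 90.3% of Sox5 and 38.9% of Sdk1. Energy metabolism genes were higher in 17 of 22 cases and lower in 0, and Myf6 was 5.24-fold and Mafa 3.93-fold higher. Collagen genes were lower in 7 of 9 cases.

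Some sarcomere genes ran against that order. Ttn had 588 CPM in the upper and 2633 CPM in the lower range, Neb 494 and 1221 CPM, and Dmd 41.1 and 1358 CPM, while Tcap had 1507 and 171 CPM and Acta1 69050 and 9293 CPM. Of 29 Z-disc and giant protein genes 14 were higher and 4 lower. Ttn, Neb and Dmd are very long genes, and 3 members held 59.2% of Dmd UMIs, 1 of them, with a score of 1.13%, 32.0%; Malat1 moved the same way, as given above. The part of either in these values was not tested.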

How the data were processed

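Per the labels' protocols, knee joints were digested with collagenase, run on 10x 3' v3 chemistry and merged from 2 experiments; they name Cell Ranger 7.0.0, and the submitters' processing notes name mm10. The authors deposited raw UMI counts per gene and barcode. No source used here says whether introns were counted. From these counts, cells were filtered, CPM summed per class, ratios given exact conditional binomial intervals and shares Clopper-Pearson intervals (numpy 2.4.6, scipy 1.17.1, pandas 2.3.3, figures with matplotlib 3.10.9). The calling rule was tested on counts simulated from pooled rates. These had no spread between cells and no large shift in composition, so the test does not cover those features of the data. Scrublet, run through scanpy 1.11.5, called 3 of 7160 and 1 of 8014 cells, too few to have worked, so doublets were not removed. A count of 0 was set to 3 for bounds and for the ratios used in ranking. Confidence is 95%. Precision is set by UMIs: a 3' UMI counts a transcript end and was not divided by gene length. PCR errors and free RNA are not covered by the intervals.

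The members and the gene lists were chosen with earlier results of these data known. Genes named are the 4 of the rule; all myosin heavy chain, thin filament, micropeptide, transcription factor and fusion genes; in other muscle lists those highest by CPM or ratio; the 10 highest and 10 lowest ratios to Myog cells and between ranges; the 5 highest ratios to other kept cells; and Col12a1, Malat1 and Neat1. Other genes named, including those not called, cell cycle genes and H19, were chosen after their values were seen. Some genes that this rule names are not reported here. Of 32285 gene IDs, 32158 matched GENCODE. Alternatives tried were other thresholds, filters, scalings, each barcode set alone, thinning depths and subsets of members.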

Additional observations from a re-analysis of the deposited data

How the results depend on the processing

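No paired analysis was possible because the cells carry no sample, genotype or replicate label and no test was run. Of 1653 alternative values, 1513 stayed on the same side of their rule. The number of members was 566 (3.28% of kept cells) with at least 200 genes and 500 UMIs and 133 (1.01%) with at least 1000 genes and 2000 UMIs; set 1 alone had 101 (1.41%) and set 2 alone 178 (2.22%). The share was 2.31% at a threshold of 0.5%, 1.5026% at 5%, and 1.37% without members rich in haemoglobin or neutrophil RNA. Against Myog cells, genes called lower were 3085 in set 1 alone, 2601 with a minimum of 300 UMIs and 1396 with median-of-ratios scaling; genes called higher were 1033 scaled to UMIs outside structure lists, 1159 with no minimum and 1775 with median-of-ratios, where the higher share of calls was 56.0% (24.2% outside structure lists, 12.2% by CPM). Against Pax7 cells, genes called lower were 3387 in set 1 alone, 3238 with a minimum of 300 and 1831 with median-of-ratios; genes called higher were 494, 1301 with no minimum and 2076, a higher share of 53.1% (21.3% outside structure lists, 11.8% by CPM). Each of these 2 scalings multiplies all ratios by 1 factor. That factor was too small to turn a lower call into a higher one, so that none turned was fixed in advance. Eya4 came to 1.13-fold and Nfix to 2.06-fold with median-of-ratios, and Myh3 to 0.466-fold at a threshold of 2%; the cause was not tested. The Myh4 share was 71.9% at 2%, 72.4% at 5%, 60.9% in set 1, 75.2% in set 2 and 67.2% as a mean over cells; in subsets chosen after seeing the data it was 63.4% with a Malat1 UMI and 68.3% without 1% of other markers. Malat1 was seen in 31.6% of members thinned to 2000 UMIs and in 42.3% unthinned. Values without the cells richest in a gene or in slow genes, given beside those genes, were chosen after seeing the data. Limits are 1 merged sample, shallow members and free RNA.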

Other observations

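Many barcodes that the filters left out also carried the 4 muscle genes. There were 643 barcodes without Ptprc at 1% or more that failed a filter (166 in set 1 and 477 in set 2), with a median of 821 UMIs and 291 genes, against 3558 UMIs and 924 genes in the 279 members. Of these, 348 failed on mitochondrial RNA, with a median of 59.8% of UMIs, and Myh4 took 90.9% of their 769 Myh UMIs, against 70.1% of 2870 in members. Another 295 had mitochondrial RNA within the limit, a median score of 10.3% and Hbb-bs at 73458 CPM, against 13320 CPM in members. Over the 643, Acta1 had 21581 CPM and Pvalb 2320 CPM, against 54596 and 4655 CPM in members. Malat1 had no UMI in 57.4% of the 643 and 57.7% of members.

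Calls also moved with the length of the gene on the genome, from the first to the last exon with introns. Between the score ranges, in the shortest of 4 equal bins of genes (0.204 to 5.54 kb) 36.1% were called higher and 19.2% lower in the upper range, and in the longest bin (37.8 to 2271 kb) 13.5% were called higher and 53.8% lower. Muscle list genes called higher in the upper range (50) had a median span of 14.2 kb, those called lower (18) 80.6 kb and those not called (40) 25.1 kb. Against Myog cells, 41.6% of genes in the shortest and 71.0% in the longest of 4 bins were called lower in members. Why span and direction move together was not tested.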
